A study of Mus musculus with 16 samples.

Results

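The solute carrier (SLC) genes expressed in mouse colon tumour organoids are described here, in organoids with and without KMT9. The members were selected on their counts: every gene symbol that starts with Slc and a family number and that had 1000 or more unique molecular identifiers (UMIs) summed over all cell barcodes of both deposited matrices. This gave 126 of 375 Slc symbols, among 31053 genes in the matrices, and 59 of the 249 symbols left out had no UMI at all. Slc25a15, Slc25a12 and Slc6a13 lay just inside the minimum with 1013, 1029 and 1042 UMIs, and Slc39a9, Slc25a30 and Slc25a16 just outside it with 981, 982 and 997. Single cells were profiled by 10x Chromium 3′ sequencing with version 2 chemistry, which counts the 3′ ends of transcripts. The labels call the samples AOM/DSS tumour organoids, self-organizing cultures of the colon tumours that mice form after the mutagen azoxymethane and the irritant dextran sulfate sodium. The plus TAM group carried the genotype KMT9ko/ko and the minus TAM group the genotype KMT9wt/wt, both at passage 14. TAM is not spelled out in the labels, which name no Cre line or promoter, and since every knockout cell was also labelled plus TAM, the genotype and the agent cannot be told apart. Each group holds 8 sample records but 1 pooled matrix, so there is 1 library per group, no replicate and no test between the groups.

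Solute carriers are membrane proteins that move amino acids, sugars, lactate, ions, metals, nucleosides, vitamins and nucleotide sugars, either down a gradient or coupled to the movement of another ion. In the colon epithelium they take up nutrients, exchange bicarbonate, protons and chloride, and supply cystine, glucose and glutamine to dividing tumour cells. Some work as pairs: Slc3a2, the heavy chain of the heterodimeric amino acid transporters, carries light chains such as Slc7a5, Slc7a8 and Slc7a11 to the cell surface. Amino acid shortage acts on several of these genes through ATF4, and low oxygen acts on glucose and lactate carriers through hypoxia-inducible factors.

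The upstream sequences of 4 members are shown because 2 pairs of partner genes can be compared in them: Slc7a11 and Slc3a2, the chains of the cystine transporter, and Slc2a1 and Slc16a3, which import glucose and export lactate. Each is the 250 bases before an annotated start, from RefSeq on GRCm38.p6. Capitals mark TGATGNAA, the core of the amino acid response element, in the first pair of lines, and ACGTG or GCGTG, the core of the hypoxia response element, in the other pair, on either strand.
Slc7a11 (chr3:50443614-50443863, minus strand): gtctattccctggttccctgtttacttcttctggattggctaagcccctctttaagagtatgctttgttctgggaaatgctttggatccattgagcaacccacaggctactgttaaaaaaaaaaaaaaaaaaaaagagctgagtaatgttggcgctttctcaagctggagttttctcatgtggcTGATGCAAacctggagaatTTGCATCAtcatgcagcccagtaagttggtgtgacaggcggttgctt
Slc3a2 (chr19:8713898-8714147, minus strand): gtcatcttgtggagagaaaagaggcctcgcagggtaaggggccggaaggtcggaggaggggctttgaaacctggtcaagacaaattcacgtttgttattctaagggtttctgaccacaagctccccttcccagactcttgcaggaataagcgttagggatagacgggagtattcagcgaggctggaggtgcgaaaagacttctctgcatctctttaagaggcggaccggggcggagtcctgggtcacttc
Slc2a1 (chr4:119108495-119108744, plus strand): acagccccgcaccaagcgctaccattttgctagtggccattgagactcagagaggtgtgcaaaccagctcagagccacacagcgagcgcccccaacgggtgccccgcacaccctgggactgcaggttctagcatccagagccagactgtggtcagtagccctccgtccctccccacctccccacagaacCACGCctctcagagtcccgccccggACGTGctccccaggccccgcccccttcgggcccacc
Slc16a3 (chr11:120948817-120949066, plus strand): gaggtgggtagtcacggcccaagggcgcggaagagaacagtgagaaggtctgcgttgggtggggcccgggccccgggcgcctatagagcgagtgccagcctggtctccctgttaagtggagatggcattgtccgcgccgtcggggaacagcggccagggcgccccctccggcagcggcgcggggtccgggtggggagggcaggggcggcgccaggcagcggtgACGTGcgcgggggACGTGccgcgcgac
Slc7a11 held 2 matches, starting 66 and 47 bases before the start and lying on opposite strands, and Slc3a2 held none in this window. Slc2a1 held 2 matches of the hypoxia core, 61 and 36 bases before the start, and Slc16a3 held 2, 27 and 14 bases before it. Promoter windows of 300 bases, which add 50 bases past the start, were found for 93 of the 126 members (133 windows). TGATGNAA stood in 3.76% of the members' windows and 3.97% of all 32851 windows. Among amino acid transporters it stood in 4 of the 21 windows (19.0%), belonging to Slc7a11, Slc1a4 and Slc7a7. The Slc7a7 windows with a match overlapped and shared a site. The hypoxia core stood in 60.9% of the members' windows and 43.8% of all windows. The core of the metal response element, TGCACNC or TGCGCNC, stood in 39.1% of the members' windows and 25.7% of all windows. It stood in 7 of the 14 windows of metal transporters, but also in 5 of 10 of ion transporters. Sugar and monocarboxylate transporters had it in 4 of 7 windows and amino acid transporters in 2 of 21. The E-box CACGTG, which contains ACGTG and so also counts as a hypoxia core, stood in 12.8% of the members' windows and 7.15% of all windows. The set of all windows covered 27025 genes and had no UMI minimum, whereas the members were selected by one. Windows of other genes with like counts were not compared. The shares therefore do not show whether any excess is particular to Slc genes. A match is a run of letters in these windows and no measure of binding.

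After filters 1481 plus TAM cells and 2629 minus TAM cells were kept, with 37301715 UMIs in plus TAM and 68666384 UMIs in minus TAM cells and medians of 24184 and 24604 UMIs per plus TAM and minus TAM cell. N6amt1, the catalytic subunit of KMT9, had 6.11 CPM (counts scaled to a total of 1000000 UMIs) in the plus TAM library and 34.0 CPM in the minus TAM library, lower in the library labelled knockout, and its partner Trmt112 had 165 CPM in plus TAM and 209 CPM in minus TAM cells. The matrices shared 498 cell barcodes. These made up 325 of the kept plus TAM cells (21.9%) and 166 of the kept minus TAM cells (6.31%). The 10 epithelial markers were all present, with 15351 CPM in plus TAM and 13556 CPM in minus TAM cells in sum. The summed fibroblast markers were near 0, at 0.268 CPM in plus TAM and 0.117 CPM in minus TAM cells with 6 of 8 genes at 0 in both libraries. The immune markers summed to 16.0 CPM in plus TAM and 12.4 CPM in minus TAM cells, and the endothelial markers to 19.0 CPM in plus TAM and 8.04 CPM in minus TAM cells.

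Across all kept cells the members did not move as a family. Of the 126 members, 12 were higher by 1.5-fold or more in the plus TAM library (9.52%) and 12 lower by 1.5-fold or more (9.52%), which left 102 in between. Among all 7910 genes that reached 10 CPM in either library, 8.12% were higher and 10.7% lower by the same size, and among the 7834 genes with 1000 or more UMIs 6.91% were higher and 10.4% lower. The members' shares lay near these backgrounds. With a minimum of 2000 UMIs 5 of 81 members were higher and 9 lower, against 5.45% higher and 9.94% lower among all genes of that minimum, and with 500 UMIs 16 of 162 were higher and 15 lower, against 8.42% higher and 10.7% lower. Their median log2 ratio of plus TAM over minus TAM was -0.13, against -0.07 for genes of 1000 or more UMIs. The 1.5-fold limit is a size and not a test, and the intervals given here are exact 95% intervals that cover counting error only. In sums over all cells, fewer cells of a type and less RNA per cell cannot be told apart.

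**Figure D1:**
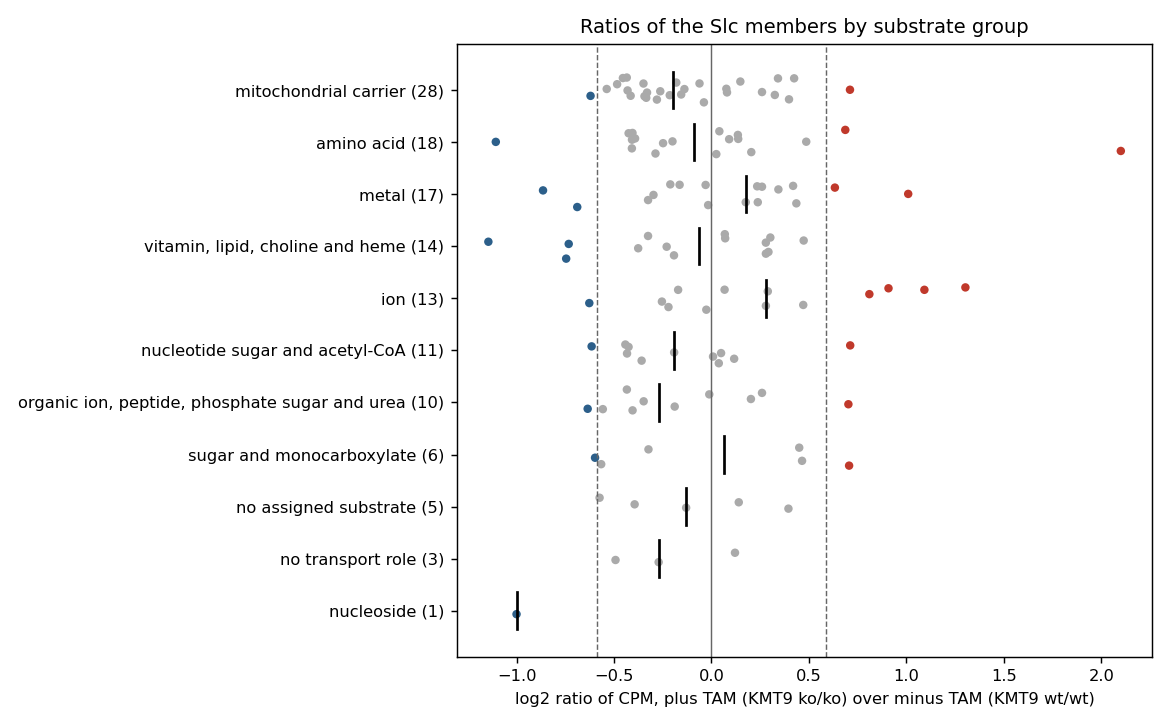
Log2 ratio of CPM, plus TAM over minus TAM, for each of the 126 members (points) by substrate group, with the number of members in brackets and the group median as a black bar; dashed lines mark 1.5-fold. Red points are 1.5-fold or more higher and blue points 1.5-fold or more lower in the plus TAM library, and most groups hold points on both sides of 0.

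Among 18 amino acid transporters 2 were higher and 1 lower in the plus TAM library, with a group median log2 ratio of -0.09. Slc7a8, a light chain for large neutral amino acids (chr14:54722209-54781946, mm10, minus strand), had 19.5 CPM (interval 18.2 to 21.0) in the plus TAM library and 4.56 CPM (4.07 to 5.09) in the minus TAM library. Its log2 ratio of 2.10 (1.91 to 2.30) was the largest of any member. Slc7a11, the light chain that exchanges cystine for glutamate, had 46.8 CPM in the plus TAM library and 29.1 CPM in the minus TAM library, a log2 ratio of 0.69 (0.59 to 0.78). Slc6a9, a glycine transporter (chr4:117834506-117875198, plus strand), stood at the other end of the group, with 14.1 CPM (12.9 to 15.3) in the plus TAM library, against 30.3 CPM (29.0 to 31.6) in the minus TAM library, a log2 ratio of -1.11.

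The partner chains of the heterodimers did not follow one direction. The shared heavy chain Slc3a2 had 284 CPM in the plus TAM library and 258 CPM in the minus TAM library, a log2 ratio of 0.14, while the light chain Slc7a5, for large neutral amino acids such as leucine, had 16.6 CPM in plus TAM and 22.4 CPM in minus TAM cells (log2 ratio -0.43). Slc7a7, the light chain that exports cationic amino acids, had 9.79 CPM in plus TAM and 11.9 CPM in minus TAM cells (log2 ratio -0.29). So of 4 light chains described here, 2 lay 1.5-fold or more above the minus TAM level and 2 lay below it by less than 1.5-fold. The glutamine carriers also differed: Slc38a2, a sodium-coupled carrier of small neutral amino acids, had 207 CPM in the plus TAM library and 148 CPM in the minus TAM library (log2 ratio 0.49), and Slc1a5, which exchanges glutamine for other neutral amino acids, had 101 CPM in plus TAM and 132 CPM in minus TAM cells (log2 ratio -0.39). Slc1a4, its relative that carries alanine, serine and cysteine, had 32.3 CPM in plus TAM and 28.1 CPM in minus TAM cells.

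Among 6 sugar and monocarboxylate transporters 1 was higher and 1 lower. Slc2a1, the main glucose importer of many dividing cells, had 161 CPM (156 to 165) in the plus TAM library and 98.4 CPM (96.1 to 101) in the minus TAM library, a log2 ratio of 0.71. Slc50a1, a sugar carrier of the SWEET family, had 64.9 CPM in the plus TAM library and 98.2 CPM in the minus TAM library, a log2 ratio of -0.60. Lactate carriers were split in the same way but by less than 1.5-fold. The exporter Slc16a3 had 69.2 CPM in plus TAM and 50.7 CPM in minus TAM cells (log2 ratio 0.45), and Slc16a1, which carries lactate in either direction, had 23.5 CPM in plus TAM and 29.4 CPM in minus TAM cells (log2 ratio -0.32).

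Ion transporters had the highest median of the groups with more than 1 member, a log2 ratio of 0.28, and 4 of the 13 were higher and 1 lower. Slc4a4, an electrogenic sodium bicarbonate cotransporter (chr5:88886818-89239653, plus strand), had 31.7 CPM (29.9 to 33.5) in the plus TAM library and 12.8 CPM (12.0 to 13.7) in the minus TAM library, a log2 ratio of 1.30. The sodium/proton exchangers Slc9a4 and Slc9a2 were higher as well. Slc9a4 had 17.9 CPM in plus TAM cells and 8.37 CPM in minus TAM cells (log2 ratio 1.09), and Slc9a2 had 15.4 CPM in plus TAM and 8.23 CPM in minus TAM cells (log2 ratio 0.91). Slc4a11, of the bicarbonate transporter family, had 19.8 CPM in plus TAM and 11.3 CPM in minus TAM cells (log2 ratio 0.81), whereas Slc12a9 was lower at 10.6 CPM in plus TAM and 16.3 CPM in minus TAM cells (log2 ratio -0.63). Slc12a2, which brings sodium, potassium and chloride into secretory cells, had 38.5 CPM in plus TAM cells and 31.7 CPM in minus TAM cells. The colonic chloride/bicarbonate exchanger Slc26a3 was no member: it had 15 UMIs in all barcodes, 12 of them in the colonocyte-like cluster. Of that cluster's cells, 70.3% had a barcode found in both matrices.

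Among 17 metal transporters 2 were higher and 2 lower, with zinc importers of the ZIP family on both sides. Slc39a1 (chr3:90248172-90253612, plus strand), which brings zinc into the cell, had 69.9 CPM (67.3 to 72.7) in the plus TAM library and 34.7 CPM (33.4 to 36.2) in the minus TAM library, a log2 ratio of 1.01. Its relatives Slc39a11 and Slc39a3 were lower in the plus TAM library. Slc39a11 had 18.6 CPM in plus TAM cells and 33.9 CPM in minus TAM cells (log2 ratio -0.86), and Slc39a3 had 17.2 CPM in plus TAM and 27.7 CPM in minus TAM cells (log2 ratio -0.69). Slc39a7, which releases zinc from the endoplasmic reticulum, had 98.9 CPM in plus TAM and 124 CPM in minus TAM cells, and the vesicular zinc exporter Slc30a2 had 123 CPM in plus TAM and 143 CPM in minus TAM cells. Of the copper carriers, Slc31a2 was higher at 18.9 CPM in plus TAM cells and 12.2 CPM in minus TAM cells (log2 ratio 0.63), and Slc31a1, the importer at the cell surface, had 83.5 CPM in plus TAM and 62.4 CPM in minus TAM cells (log2 ratio 0.42). The iron exporter Slc40a1 had 24.7 CPM in plus TAM and 19.4 CPM in minus TAM cells, and the iron importer Slc11a2 had 19.7 CPM in plus TAM and 16.4 CPM in minus TAM cells, both less than 1.5-fold apart.

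The only nucleoside transporter among the members was Slc29a1, the equilibrative carrier that also takes up nucleoside drugs (chr17:45585200-45599606, minus strand). It had 39.8 CPM (37.8 to 41.9) in the plus TAM library and 79.6 CPM (77.5 to 81.8) in the minus TAM library, with an interval of -1.08 to -0.92 for the log2 ratio. Carriers of folate, thiamine and riboflavin lay on both sides. Slc19a1, the reduced folate carrier (chr10:77032241-77061002, plus strand), had 17.6 CPM (16.3 to 19.0) in the plus TAM library and 38.9 CPM (37.5 to 40.4) in the minus TAM library, and its log2 ratio of -1.14 was the lowest of any member. The thiamine carrier Slc19a2 had 9.62 CPM in plus TAM and 16.1 CPM in minus TAM cells (log2 ratio -0.75), and the riboflavin carrier Slc52a2 had 16.9 CPM in plus TAM and 28.2 CPM in minus TAM cells (log2 ratio -0.73). These 3 were the lower members among 14 carriers of vitamins, lipids, choline and heme, none of which was 1.5-fold higher. The proton-coupled folate carrier Slc46a1 had 19.7 CPM in plus TAM and 16.0 CPM in minus TAM cells (log2 ratio 0.30), and the riboflavin carrier Slc52a3 had 10.4 CPM in plus TAM and 13.0 CPM in minus TAM cells (log2 ratio -0.33). The mitochondrial folate carrier Slc25a32 had 12.3 CPM in plus TAM and 9.71 CPM in minus TAM cells (log2 ratio 0.34, interval 0.17 to 0.51), so these other carriers were less than 1.5-fold apart. The choline transporter-like genes Slc44a2 and Slc44a4 had 66.0 and 33.7 CPM in the plus TAM library, against 54.4 and 32.1 CPM in the minus TAM library.

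Mitochondrial carriers made up the largest group, with 28 members, a median log2 ratio of -0.20, 1 member higher and 1 lower. Slc25a24, which exchanges ATP-magnesium for phosphate, had 45.9 CPM in the plus TAM library and 28.1 CPM in the minus TAM library (log2 ratio 0.71). Slc25a36, a pyrimidine nucleotide carrier, had 19.1 CPM in plus TAM and 29.3 CPM in minus TAM cells (log2 ratio -0.62). The carriers that serve oxidative phosphorylation were less than 1.5-fold apart: the phosphate carrier Slc25a3 had 684 CPM in the plus TAM library and 762 CPM in the minus TAM library, and the ADP/ATP exchanger Slc25a5 had 1384 CPM in plus TAM and 1681 CPM in minus TAM cells. The other ADP/ATP exchanger, Slc25a4, lay on the opposite side with 146 CPM in plus TAM and 122 CPM in minus TAM cells. Slc25a4 and Slc25a5 are close in sequence, and no source used here says how the authors' counting treated reads that match more than 1 gene, so their split is uncertain.

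Of the 11 carriers of nucleotide sugars and acetyl-CoA 1 was higher and 1 lower. Slc17a9, which fills vesicles with ATP, had 20.1 CPM in the plus TAM library and 12.3 CPM in the minus TAM library (log2 ratio 0.71), and Slc35c2, of the Golgi nucleotide sugar family, had 27.6 CPM in plus TAM and 42.2 CPM in minus TAM cells (log2 ratio -0.61). Of the 10 carriers of organic ions, peptides and phosphorylated sugars, the creatine importer Slc6a8 was higher at 21.8 CPM in plus TAM and 13.4 CPM in minus TAM cells (log2 ratio 0.70), and Slc37a4, which moves glucose 6-phosphate into the endoplasmic reticulum, was lower at 7.61 CPM in plus TAM and 11.8 CPM in minus TAM cells (log2 ratio -0.64). Slc9a3r1, a scaffold protein with an Slc symbol but no transport role of its own, had 129 CPM in the plus TAM library and 119 CPM in the minus TAM library. None of the 3 members without a transport role and none of the 5 without an assigned substrate was 1.5-fold apart. Counts of 34 members, among them Slc6a9, Slc9a4, Slc2a1 and Slc29a1, may hold reads of a gene with exons on the opposite strand, since the strand setting of the counting is not given.

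**Figure D2:**
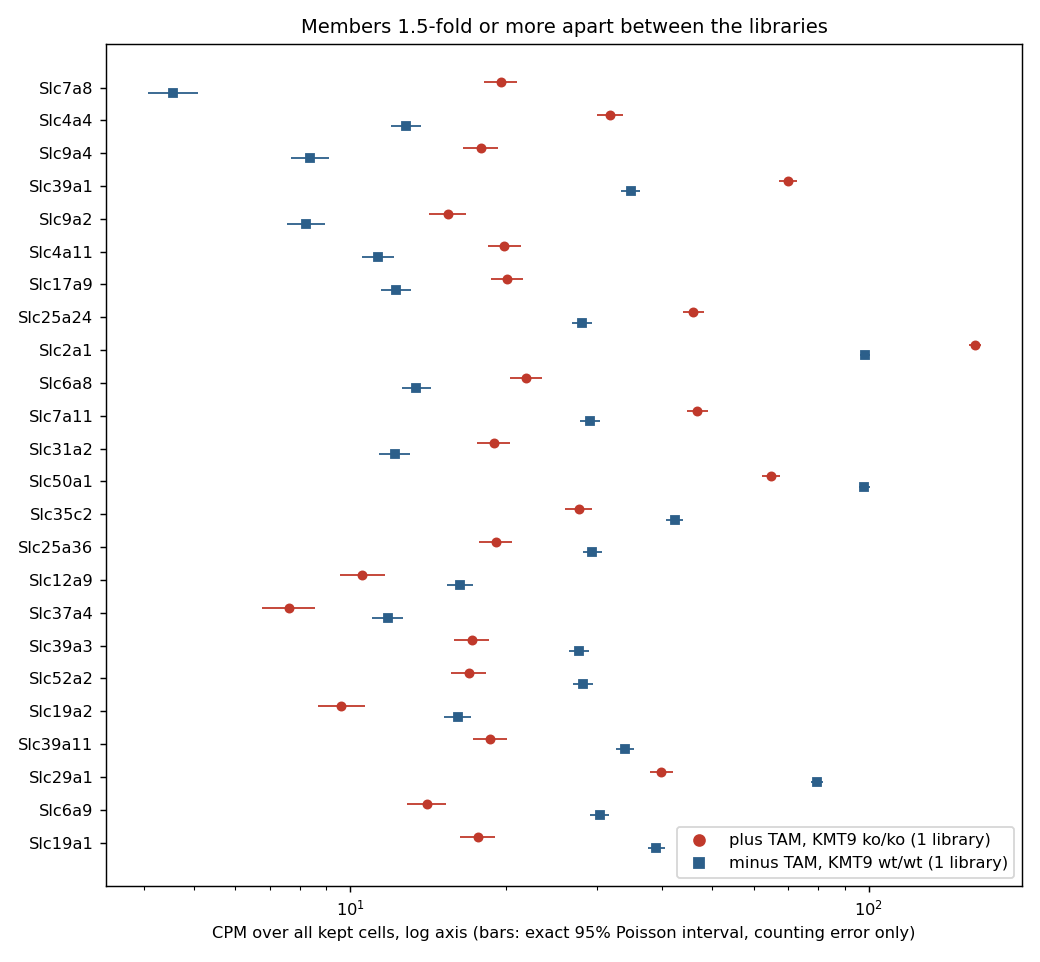
CPM over all kept cells (log axis) of the 24 members that were 1.5-fold or more apart, with plus TAM as red circles above minus TAM as blue squares and bars for exact 95% Poisson intervals. Slc7a8 has the widest gap, with 19.5 CPM in plus TAM cells and 4.56 CPM in minus TAM cells, and Slc19a1 the widest in the other direction.

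The levels of many members differed between clusters of cells, in both libraries. Cells of both libraries were clustered with all Slc genes left out of the clustering genes, which gave 12 clusters, 9 of them with 50 or more cells. A G2 and M phase-like cluster (3), an S phase-like cluster (8) and a colonocyte-like cluster (9) could be named from markers, and the others are called by number and leading genes. Over the 9 clusters, the highest level was 5-fold or more above the lowest for 24 members (19.0%), against 11.4% of all genes with 1000 or more UMIs, and the median range was 2.65-fold over the members and 2.27-fold over all those genes. The clusters were uneven between the libraries: cluster 4 (Tmprss11d, Sprr1a, Clu) held 26.3% of plus TAM cells and 1.67% of minus TAM cells, and cluster 5 (Prss56, Pnliprp1) held 12.6% of plus TAM and 3.23% of minus TAM cells. Cluster 0 (Saa3, Isx) held 1.76% of plus TAM cells and 30.6% of minus TAM cells, cluster 2 (Defa30, Reg4) held 1.42% of plus TAM and 24.6% of minus TAM cells, and cluster 3 held 8.78% of plus TAM and 18.1% of minus TAM cells. A cluster made mostly of 1 library may be that library and not a cell type.

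Cluster 5 had the highest level of several carriers among clusters of 50 or more cells. Slc7a8 had 132 CPM in its plus TAM cells and 104 CPM in its minus TAM cells, and at most 15.6 CPM in any other cluster and library of 50 or more cells. Thinned to 5000 UMIs per cell, 35.5% of 183 plus TAM cells and 27.1% of 85 minus TAM cells of cluster 5 had a Slc7a8 UMI (70.1% of plus TAM and 58.8% of minus TAM cells before thinning). In cluster 2 at a like depth, a median of 19469 UMIs against 19558 in plus TAM and 19516 in minus TAM cells of cluster 5, the share was 0.624% of 641 minus TAM cells (3.41% before thinning). Cluster 5 held 70.0% of the Slc7a8 UMIs of the plus TAM library and 60.7% of those of the minus TAM library.

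Slc30a2 also had its highest level in cluster 5, 385 CPM in plus TAM cells and 409 CPM in minus TAM cells, and its lowest among these clusters in cluster 4, with 10.4 CPM in plus TAM cells. Cluster 2 was close behind with 340.5 CPM in minus TAM cells, so most Slc30a2 UMIs lay outside cluster 5. Slc39a8, a zinc and manganese importer, had 95.7 CPM in plus TAM and 75.3 CPM in minus TAM cells of cluster 5 and 3.13 CPM in plus TAM cells of cluster 4. The vesicular monoamine transporter Slc18a1 had 41.3 CPM in plus TAM and 49.7 CPM in minus TAM cells of cluster 5 and 1.04 CPM in plus TAM cells of cluster 4, and the mitochondrial carrier Slc25a35 had 67.6 CPM in plus TAM and 70.4 CPM in minus TAM cells of cluster 5 and 5.74 CPM in plus TAM cells of cluster 4. These 4 members were thus high in cluster 5 of both libraries and low in plus TAM cells of cluster 4. Over both libraries, Slc39a8 also had 59.2 CPM in cluster 1 and 50.2 CPM in cluster 2. Slc18a1 and Slc25a35 had 21.4 and 19.8 CPM in cluster 2 over both libraries. Barcodes found in both matrices made up 37.4% of plus TAM and 3.53% of minus TAM cells of cluster 5, and 24.9% of plus TAM cells of cluster 4. Without them, the levels in cluster 5 were 110.5 CPM in plus TAM and 82.3 CPM in minus TAM cells for Slc7a8, and 337 CPM in plus TAM and 401 CPM in minus TAM cells for Slc30a2. Slc39a8 then had 93.5 CPM in plus TAM and 78.8 CPM in minus TAM cells, Slc18a1 had 39.8 CPM in plus TAM and 45.9 CPM in minus TAM cells, and Slc25a35 had 63.5 CPM in plus TAM and 72.2 CPM in minus TAM cells.

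A different set of carriers was high in cluster 4, though not only there. In its plus TAM cells Slc4a11 had 41.2 CPM, Slc35e4 had 89.1 CPM and Slc6a14, a broad importer of neutral and cationic amino acids, had 26.5 CPM. In cluster 5 the levels were 3.87 CPM in plus TAM and 1.09 CPM in minus TAM cells for Slc4a11, 10.8 CPM in plus TAM and 7.10 CPM in minus TAM cells for Slc35e4, and 1.55 CPM in plus TAM and 1.64 CPM in minus TAM cells for Slc6a14. Over both libraries, Slc35e4 also had 65.2 CPM in cluster 0, and Slc4a11 had 31.0 CPM in cluster 6. Slc6a14 had 18.0 CPM in cluster 0 and 37.2 CPM in the 37 cells of the colonocyte-like cluster. Cluster 4 held 63.9% of the Slc4a11 UMIs of the plus TAM library and 5.92% of those of the minus TAM library. In cluster 1 (Cxcl14, Plat), the lactate exporter Slc16a3 had 113 CPM in plus TAM cells and 110.1 CPM in minus TAM cells, against 20.9 CPM in minus TAM cells of cluster 0. Among clusters of 50 or more cells, the myo-inositol importer Slc5a3 was highest in plus TAM cells of cluster 7 (Spp1, Cxcl10), at 70.0 CPM.

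The nucleoside carrier Slc29a1 and the reduced folate carrier Slc19a1 had high levels in the cycling clusters. Slc29a1 had 76.0 CPM in plus TAM cells and 126 CPM in minus TAM cells of the G2 and M phase-like cluster, 141 CPM in minus TAM cells of the S phase-like cluster, and 18.7 CPM in plus TAM cells of cluster 4. Its level was not high in cycling clusters only. Over both libraries Slc29a1 had 95.04 CPM in cluster 2, against 114 CPM in the G2 and M phase-like cluster. Slc19a1 had 27.3 CPM in plus TAM and 47.0 CPM in minus TAM cells of the G2 and M phase-like cluster, 44.8 CPM in minus TAM S phase-like cells, and 7.48 CPM in plus TAM and 9.28 CPM in minus TAM cells of cluster 5. Its level in minus TAM cells of cluster 0 was 49.4 CPM, so it was as high in a cluster outside the cycling ones. The other folate carriers had a different order over the 9 clusters: Slc46a1 was lowest in the G2 and M phase-like cluster, at 11.2 CPM over both libraries, and Slc25a32 was highest in cluster 5, at 31.7 CPM. Several other members, such as Slc12a2 (77.5 CPM in plus TAM cells and 89.6 CPM in minus TAM cells) and Slc25a36 (83.5 CPM in plus TAM and 87.3 CPM in minus TAM cells), were highest in cluster 6 among clusters of 50 or more cells. In the 37 cells of the colonocyte-like cluster Slc12a2 reached 150.2 CPM over both libraries. Barcodes found in both matrices made up 70.3% of these cells. Cells of cluster 6 held a median of 3827.5 UMIs with 7.66% mitochondrial UMIs. The part of that low depth in these levels was not tested.

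**Figure D3:**
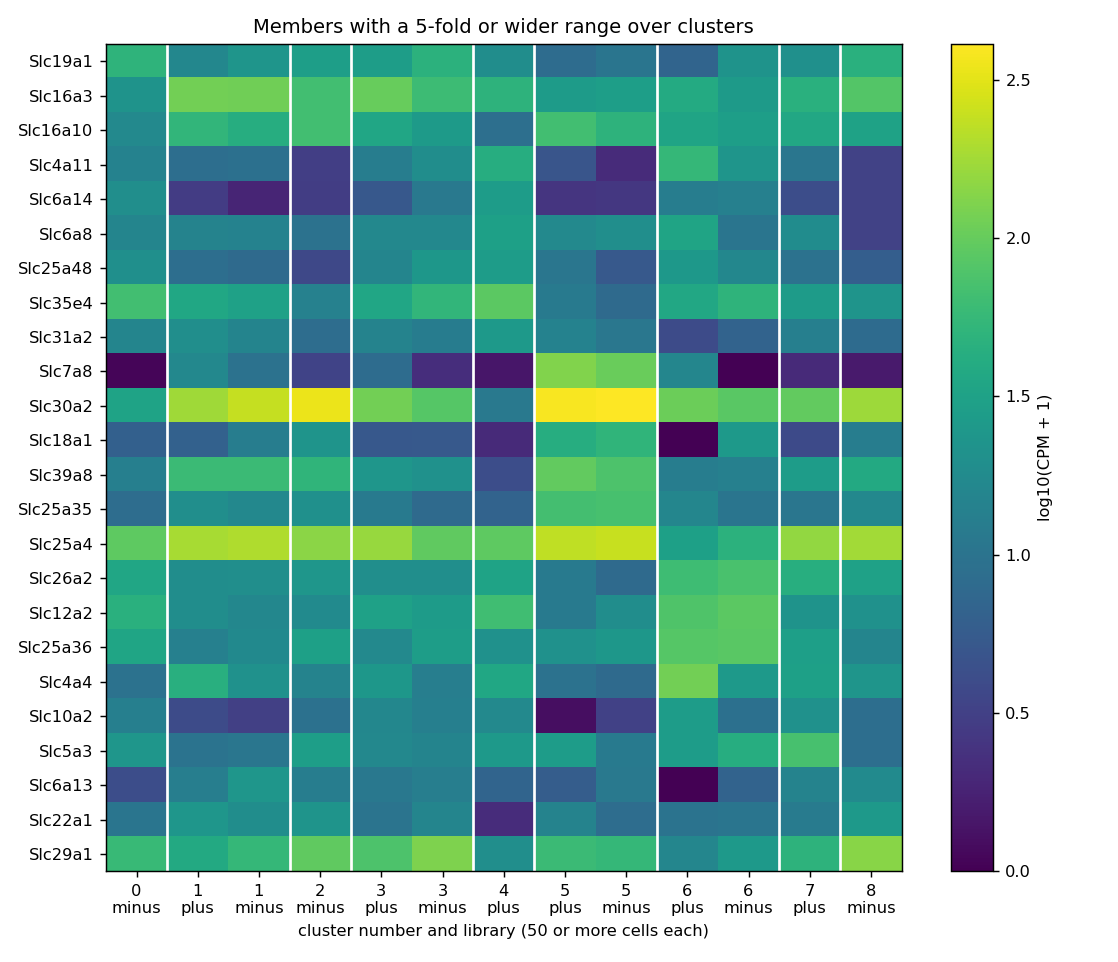
Level of the 24 members with a 5-fold or wider range over clusters, as log10(CPM + 1) in colour, in each cluster and library with 50 or more cells, plus TAM left of minus TAM. Slc7a8, Slc30a2, Slc18a1, Slc39a8 and Slc25a35 are brightest in cluster 5 in both libraries, and Slc4a11, Slc6a14 and Slc35e4 are bright in cluster 4 and dark in cluster 5.

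When minus TAM cells were weighted so that each cluster had its share in the plus TAM library, most differences shrank below 1.5-fold. Under that weighting 3 members were higher (2.38%) and 4 were lower (3.17%), against 4.05% higher and 2.31% lower among all genes with 10 or more CPM, and the median log2 ratio of the members was 0.0090. Of the 24 members apart over all cells, 5 remained: Slc39a1, Slc4a4 and Slc9a4 higher, with log2 ratios of 0.77, 0.73 and 0.61, and Slc6a9 and Slc19a1 lower, with -1.05 and -0.60. Slc18a1 and Slc6a13, which carries GABA and taurine, were the other lower members, at -0.75 and -0.60. Slc7a8 came to a log2 ratio of 0.58, Slc2a1 to 0.51, Slc7a11 to 0.13, Slc4a11 to 0.29 and Slc29a1 to -0.39. The weighting rests on few minus TAM cells where plus TAM cells were many: 44 minus TAM cells of cluster 4 stood against 389 plus TAM cells, and 37 of cluster 7 against 160.

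**Figure D4:**
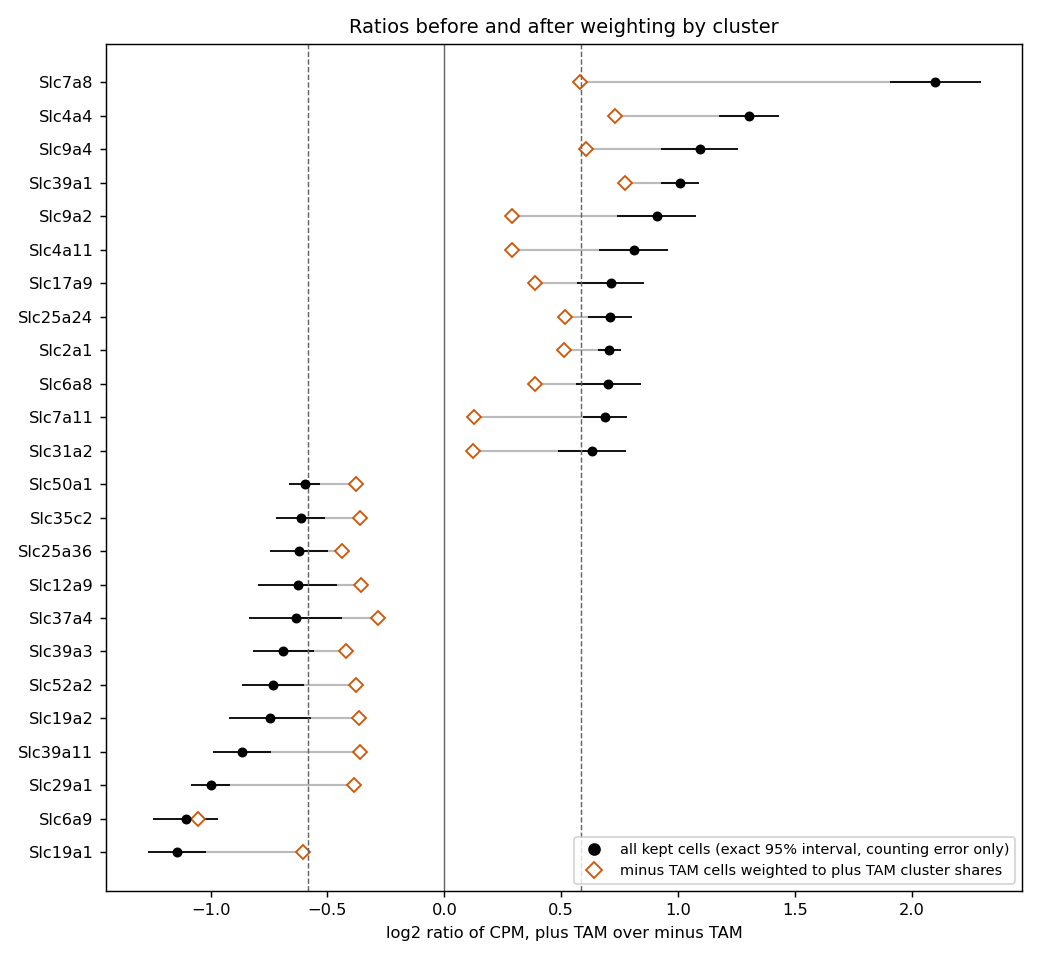
Log2 ratio, plus TAM over minus TAM, of the 24 members that were 1.5-fold or more apart (dashed lines), over all kept cells (black, with exact 95% intervals) and with minus TAM cells weighted to the plus TAM cluster shares (open diamonds, no interval computed). All 24 diamonds keep the side of the black point and lie closer to 0, and 5 stay outside the dashed lines, Slc6a9 with the smallest shift.

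Ratios within a cluster could be taken in clusters 1, 3, 5 and 6, where each library had 50 or more cells. Of the 12 higher members 7 were above 0 in all 4 clusters, and of the 12 lower members 8 were below 0 in all 4. Among all genes of 1000 or more UMIs that were 1.5-fold apart, the shares were 63.2% of those higher and 61.7% of those lower, so the members' counts lay near the background. Slc6a9 was lower in plus TAM cells of each cluster with intervals below 0 in all 4: it had 10.8 CPM in plus TAM cells and 25.8 CPM in minus TAM cells of cluster 1, 16.3 CPM in plus TAM and 39.5 CPM in minus TAM cells of cluster 3, 15.2 CPM in plus TAM and 26.2 CPM in minus TAM cells of cluster 5, and 11.9 CPM in plus TAM and 43.1 CPM in minus TAM cells of cluster 6. Slc39a1 had 86.2 CPM in plus TAM and 42.7 CPM in minus TAM cells of cluster 1, 43.8 CPM in plus TAM and 26.4 CPM in minus TAM cells of cluster 3 and 76.1 CPM in plus TAM and 37.7 CPM in minus TAM cells of cluster 5. Its log2 ratio in cluster 6 was 0.13, with an interval of -0.84 to 1.04.

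Slc4a4 had 43.3 CPM in plus TAM cells and 19.99 CPM in minus TAM cells of cluster 1, 23.3 CPM in plus TAM and 12.0 CPM in minus TAM cells of cluster 3, 8.77 CPM in plus TAM and 7.10 CPM in minus TAM cells of cluster 5, and 113 CPM in plus TAM and 24.4 CPM in minus TAM cells of cluster 6. Its interval included 0 in cluster 5. Slc7a11 differed most in the G2 and M phase-like cluster, with 51.2 CPM in plus TAM cells and 26.7 CPM in minus TAM cells, and its log2 ratios in clusters 5 and 6 were 0.07 and -0.07. Slc16a3 also had its gap in that cluster (101 CPM in plus TAM and 60.4 CPM in minus TAM cells), while cluster 1 gave a log2 ratio of 0.04. Slc29a1 had log2 ratios of -0.52 and -0.73 in clusters 1 and 3 and 0.15 in cluster 5. Slc2a1 had log2 ratios of 0.40 and 0.43 in clusters 1 and 3 and 0.04 in cluster 5. Whether the ratios differ between clusters was not tested.

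**Figure D5:**
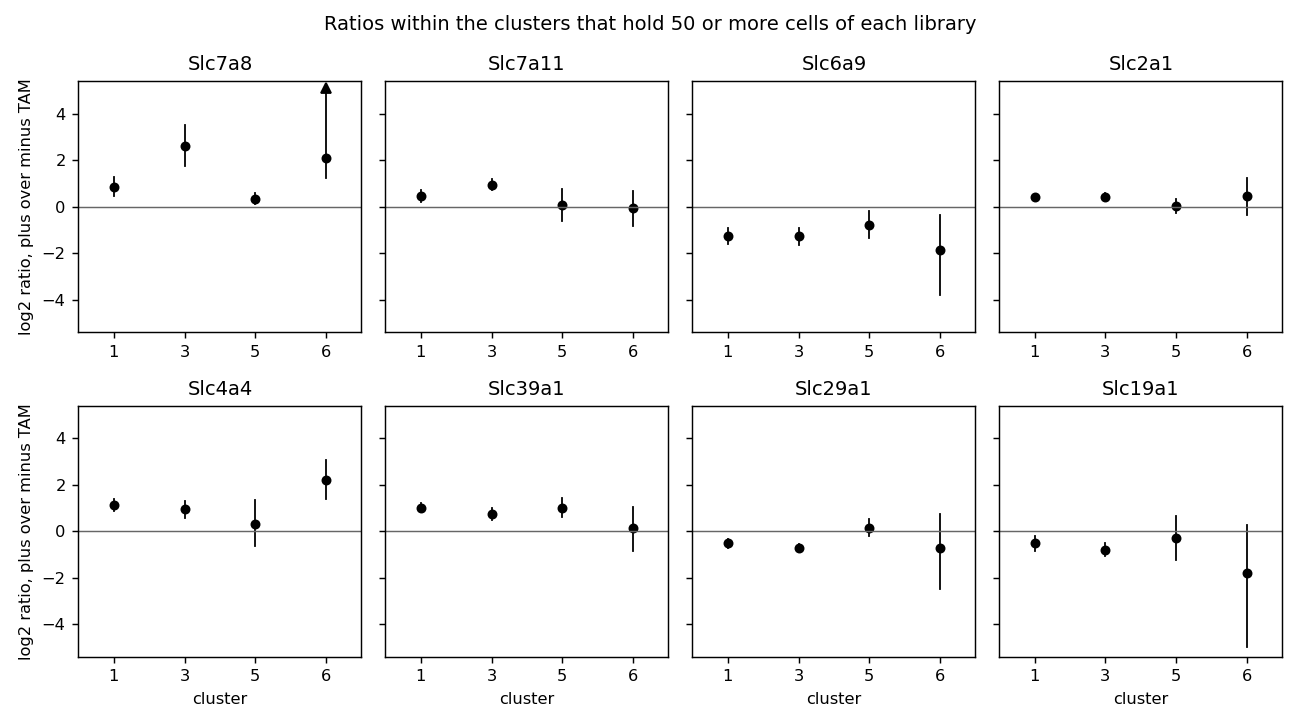
Log2 ratio of CPM, plus TAM over minus TAM, within clusters 1, 3, 5 and 6 for 8 members, with exact 95% intervals as lines (arrow: no upper bound, since minus TAM cells of cluster 6 had no Slc7a8 UMI). Slc6a9 lies below 0 in all 4 clusters, Slc7a8, Slc4a4 and Slc39a1 lie above 0 in all 4, and Slc7a11 and Slc29a1 cross 0.

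Without the barcodes found in both matrices, 9 members were higher and 13 lower, against 6.54% higher and 11.3% lower among all genes with 10 or more CPM. Slc9a2, Slc17a9, Slc6a8 and Slc31a2 then had log2 ratios of 0.57, 0.55, 0.43 and 0.50, and Slc50a1 had -0.55, all less than 1.5-fold. Slc7a8 came to 1.83, Slc4a4 to 1.30, Slc39a1 to 0.98, Slc29a1 to -0.96 and Slc19a1 to -1.01. Within clusters 1, 3, 5 and 6, Slc6a9 without these barcodes had log2 ratios of -1.24, -1.04, -1.13 and -1.85, and Slc39a1 had 0.98, 0.90, 0.95 and 0.49, the last with an interval of -0.54 to 1.46.

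Genes that act beside the carriers were read from 2 lists. Of 18 measured genes of the amino acid response, 1 was higher and 6 lower in the plus TAM library, with a median log2 ratio of -0.43, against the 8.12% of all genes higher and 10.7% lower given above. Asparagine synthetase, Asns, had 174 CPM in the plus TAM library and 297 CPM in the minus TAM library, and Trib3 and Atf5 had 37.3 and 45.4 CPM in plus TAM cells, against 128 and 157 CPM in minus TAM cells. Slc7a11 and Slc38a2, which respond to ATF4 in other settings, lay on the opposite side from these genes, as did Nupr1, a stress-induced chromatin protein, with 1846 CPM in plus TAM and 1063 CPM in minus TAM cells (log2 ratio 0.80). Atf3 and Chac1 of the same list had log2 ratios of 0.55 and 0.45, less than 1.5-fold. Atf4 itself had 356 CPM in plus TAM and 382 CPM in minus TAM cells. The amino acid carriers were split: Slc6a9, Slc7a5 and Slc1a5 lay on the same side as Asns, with log2 ratios of -1.11, -0.43 and -0.39. Among the 18 amino acid transporters 9 had log2 ratios above 0 and 9 below 0. Of 32 measured partner genes of transport, 9 were higher and 5 lower, set against the same shares of all genes. The zinc-binding metallothioneins Mt4 and Mt3 had 545 and 442 CPM in the plus TAM library, against 143 and 131 CPM in the minus TAM library, and Mt1 had 825 CPM in plus TAM and 532 CPM in minus TAM cells. Hexokinase 2, Hk2, which traps the glucose that enters through Slc2a1, had 69.6 CPM in plus TAM and 32.2 CPM in minus TAM cells.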

How the data were processed

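Per the file headers, the deposited counts are UMIs of each gene in each cell barcode, written by Cell Ranger 3.1.0. The genome was mm10, per the submitters' processing notes. No normalization was applied, and the aligner settings, annotation release and strand setting are not given in the sources used here. Both deposited matrices were read whole, and no other sample columns were present.

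A cell was kept if it had 1000 or more genes, 2000 or more UMIs and no more than 20% of UMIs from mitochondrial genes. Scrublet, as included in scanpy 1.11.5, marked 3 plus TAM and 12 minus TAM cells as doublets with its own threshold. In place of that, the top-scoring 18 and 58 cells were taken out, at a rate of 0.8% per 1000 cells. UMIs were summed over the 1481 and 2629 kept cells and scaled to CPM of all genes. A ratio is plus TAM over minus TAM, with no pseudocount and a floor of 3 counts per library or cluster where a count was 0. Genes 1.5-fold or more apart were called higher or lower. Intervals are exact at 95% (Poisson for a CPM, conditional binomial for a ratio). With 1 library per group there are no p-values. The summing and calling steps were tested on simulated data.

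Cells were clustered in scanpy from 2000 variable genes without Slc genes, 30 principal components and 15 neighbours (Leiden 0.8, leidenalg 0.10.2). TMM factors came from edgeR 4.0.16. Positions, transcript lengths and exon overlaps are from GENCODE M21, in which 30934 of 31053 gene identifiers were found, and upstream sequences are from RefSeq (GRCm38.p6).

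The members, the substrate groups and the gene lists were chosen with earlier results of these data known. Slc7a6os and Slc4a1ap, which carry Slc symbols by neighbourhood or binding partner, were moved to the members without a transport role after their names were seen. Named genes are, in each substrate group, the 2 with the highest mean CPM, up to 4 in each direction past 1.5-fold, up to 4 with the widest range over clusters, and a fixed list of 20 carriers. Not every gene that this rule gives is described.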

Additional observations from a re-analysis of the deposited data

How the results depend on the processing

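The counts of 12 higher and 12 lower members and their median log2 ratio of -0.13 were recomputed under 10 other choices of cells, totals and weights. Higher counts ran from 9 to 12 and lower counts from 11 to 15 in 9 of them (no cell filter, a stricter filter, no doublet removal, TMM factors, totals without mitochondrial and ribosomal protein genes, and leaving out shared barcodes, the colonocyte-like, the cycling-like or the low-depth clusters, the last chosen after seeing the data, as were levels within clusters without shared barcodes). Weighting minus TAM cells to the plus TAM cluster shares gave 3 higher, 4 lower and a median of 0.0090, which is on the other side of 0; the cause was not tested. Under the 10 choices 5 of the 24 members stayed 1.5-fold or more apart: Slc39a1, Slc4a4, Slc9a4, Slc6a9 and Slc19a1. A limit of 2-fold gave 4 higher and 3 lower. A minimum of 2000 UMIs gave 81 members with 5 higher and 9 lower, and 500 UMIs gave 162 members with 16 higher and 15 lower. Set against genes with transcripts of similar length, the median was -0.06. Coarser and finer clusters, and clusters of minus TAM cells alone, gave 22, 31 and 24 members with a 5-fold range. No replicate could be left out, and no paired analysis was possible because each group has 1 matrix. Depth limits ratios within cluster 6, where intervals often span 0.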
